A study of Mus musculus with 6 samples.

Results

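The amino acid and peptide transporters are the solute carrier genes of the families SLC1, SLC3, SLC6, SLC7, SLC15, SLC36, SLC38 and SLC43, chosen by gene symbol. Of 19938 genes tested in embryonic mouse lung, 69 met that rule, each read from its brightest array feature. Of these, Slc7a6os and Slc6a19os were taken in by their symbols alone, since they lie opposite a carrier gene and encode no carrier themselves. Whole lungs were profiled at E14.5 (embryonic day) on 6 single-colour Affymetrix arrays, 3 from mutant and 3 from control embryos. Mutant embryos carried Shh-Cre with homozygous floxed Foxp1, Foxp2 and Foxp4. The genotype label names Foxp1 a second time in place of Foxp2, which is read here from the title of the series. Control embryos carried Shh-Cre with no floxed allele in their label, and both groups were of mixed C57BL/6 and 129X1 background. Shh-Cre acts in the endoderm that forms the lung epithelium, so mesenchyme, vessels and blood in the same sample kept these genes. The comparison asks what the loss of Foxp1, Foxp2 and Foxp4 in lung endoderm does to the RNA of the whole lung.

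Cells take up amino acids and short peptides through membrane carriers that differ in substrate and in driving force. SLC1 carriers move glutamate or small neutral amino acids with sodium, SLC6 and SLC38 carriers are also sodium-coupled, and SLC15 and SLC36 carriers use a proton gradient. Most SLC7 proteins are light chains that exchange amino acids only when joined to an SLC3 heavy chain. In the lung, the peptide carrier Slc15a2 and the broad amino acid carrier Slc6a14 are known from the luminal face of the epithelium.

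Values are log2 expression after robust multi-array averaging (RMA) by the authors, and differences are mutant minus control on the log2 scale, given with the limma standard error (SE). Array medians lay between 6.70 and 6.79. The lowest correlation between arrays was 0.994 among mutants and 0.998 among controls, and correlations lay between 0.988 and 0.991 across groups. Of the targeted genes, Foxp2 (-0.95) and Foxp4 (-0.64) passed the threshold and Foxp1 (-0.31, limma adjusted p = 0.0661) did not. The lung marker Nkx2-1 read 9.25 on average in mutants and 10.12 in controls. Heart muscle markers stood 1.13 above the control mean in mutant 1, by the list's median, but at -0.29 and -0.35 in mutants 2 and 3. Array 3 of each group came from a male embryo, judged by Xist and Y-linked genes. Of the other marker lists, smooth muscle had 6 of 8 genes lower and 1 higher (median -1.58), proximal airway epithelium 5 of 9 lower and 1 higher (median -0.46), cartilage 4 of 8 lower (median -0.49) and lung mesenchyme 3 of 10 higher and 1 lower (median 0.11). Endothelium, liver and heart muscle gave no call among 8, 7 and 10 genes, and mesothelium 1 of 5 higher.

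Of the 69 transporter genes, 4 were lower and 2 higher in mutant lungs at a Benjamini-Hochberg adjusted p under 0.05 (limma). The 4 that fell were the peptide carrier Slc15a2, the amino acid carrier Slc6a14, the neutral amino acid carrier Slc1a4 and the glutamate carrier Slc1a3. The 2 that rose were the cystine carrier Slc7a11 and the branched-chain amino acid carrier Slc6a15. These 6 genes are 8.70% of the family members, beside 7.66% of all genes tested, so the share called was close to the background. In each direction the shares were 5.80% lower (3.83% of all genes) and 2.90% higher (3.84% of all genes). The median difference of the 69 genes was -0.01, as it was over all genes. At least 2-fold changes were seen in 2 of 69 members (2.90%), Slc15a2 and Slc7a11, and in 0.958% of all genes. At least 1.5-fold changes were called in 3 of 69 members (4.35%), which adds Slc6a14, and in 2.75% of all genes.

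**Figure D1:**
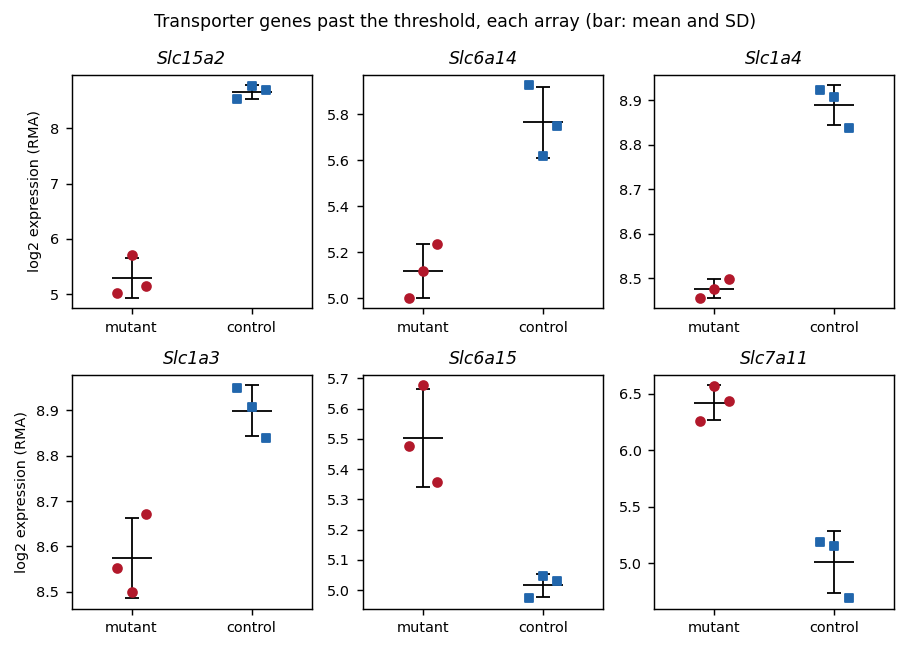
Log2 expression (RMA) of the 6 transporter genes past the threshold, in 3 mutant (circles) and 3 control lungs (squares), with the mean and SD as bars. Each panel has its own axis range. In each of the 6 genes the mutant and control values do not overlap.

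The other 63 transporter genes did not pass, and 62 of them had a 95% interval of the difference within 1.5-fold in both directions. The exception was Slc7a2, described below with the cationic carriers. The median half-width of the interval over the 69 members was 0.16 log2 units. Mutant and control values did not overlap in 17 members (24.6%), 11 with the mutants below and 6 with the mutants above, beside 25.9% of all genes. An unadjusted p under 0.05 was reached by 14 members (20.3%), beside 19.8% of all genes. In controls, 29 of 69 members read above the median gene.

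**Figure D2:**
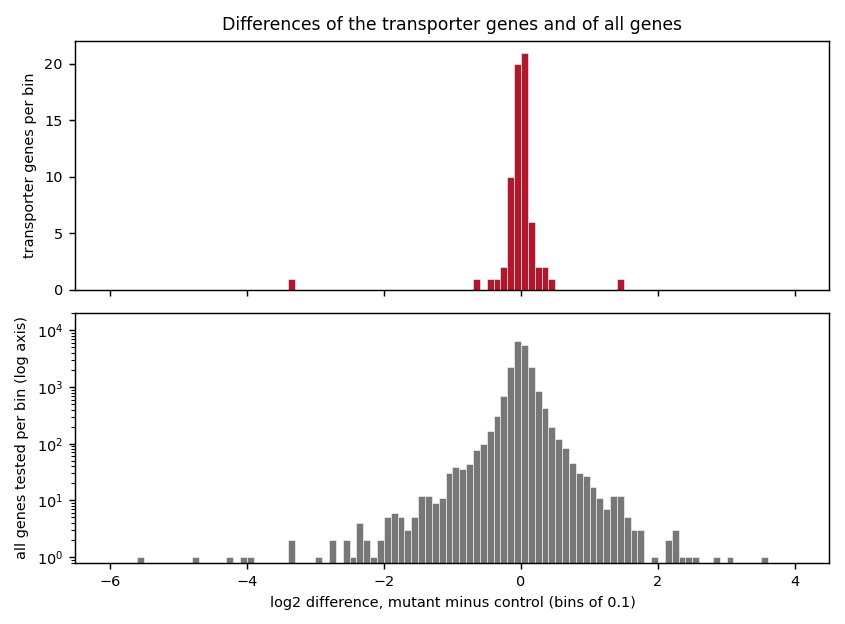
Number of genes per bin of 0.1 in the log2 difference, mutant minus control, for the 69 transporter genes (top, linear axis) and for all 19938 genes tested (bottom, log axis). Both centre on 0, and Slc15a2 at -3.37 and Slc7a11 at 1.41 stand alone at the ends of the transporter distribution.

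Promoters are shown for the member with the largest rise, a called member that shares a motif with it and the member with the largest fall. They were searched on both strands for the forkhead motif TGTTTAC and the amino acid response motif TGATGNAA, through which ATF4 acts on amino acid transporter genes. Sequences are RefSeq's (GRCm38.p6), on the gene's own strand, from 250 bases before to 50 bases after the annotated start. Capitals mark a match to either motif on either strand. The 3 genes are Slc7a11 (chr3:50443564-50443863, minus strand), Slc1a4 (chr11:20332664-20332963, minus strand) and Slc15a2 (chr16:36784913-36785212, minus strand).
Slc7a11: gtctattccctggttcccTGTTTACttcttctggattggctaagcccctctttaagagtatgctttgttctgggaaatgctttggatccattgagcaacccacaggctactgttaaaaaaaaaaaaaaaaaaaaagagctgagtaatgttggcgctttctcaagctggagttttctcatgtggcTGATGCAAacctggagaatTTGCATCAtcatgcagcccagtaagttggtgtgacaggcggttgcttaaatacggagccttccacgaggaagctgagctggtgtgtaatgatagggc
Slc1a4: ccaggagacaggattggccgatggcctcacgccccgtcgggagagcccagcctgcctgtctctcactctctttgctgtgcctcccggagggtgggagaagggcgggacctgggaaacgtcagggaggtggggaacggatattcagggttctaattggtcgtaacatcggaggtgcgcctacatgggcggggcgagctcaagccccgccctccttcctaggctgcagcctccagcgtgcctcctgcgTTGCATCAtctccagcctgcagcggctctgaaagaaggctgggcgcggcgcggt
Slc15a2: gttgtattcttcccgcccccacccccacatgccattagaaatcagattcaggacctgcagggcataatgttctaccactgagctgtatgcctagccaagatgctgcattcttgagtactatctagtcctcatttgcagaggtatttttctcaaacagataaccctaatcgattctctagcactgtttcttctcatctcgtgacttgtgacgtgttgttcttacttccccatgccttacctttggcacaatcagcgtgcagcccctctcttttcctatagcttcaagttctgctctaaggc

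The Slc7a11 promoter held 1 forkhead match, starting at position -232 from the start site, and 2 amino acid response matches on opposite strands, starting at -66 and -47. None of these matches overlap. The Slc1a4 promoter held 1 amino acid response match on the opposite strand, starting at -4. The Slc15a2 window held neither set of letters. Of 32851 mouse promoters of this length, 3.65% held the forkhead letters, 3.97% the amino acid response letters and 0.228% both. Promoters were listed for 51 of the 69 members, in 72 windows. Forkhead letters stood in 2 of these windows, those of Slc7a11 and Slc36a3, and amino acid response letters in 6 windows of 5 genes (Slc7a11, Slc1a4, Slc7a7, Slc15a5 and Slc6a21). Of these genes, the proton-coupled carrier Slc36a3 (0.01), the light chain Slc7a7 (-0.09), Slc15a5 (-0.05) and Slc6a21 (-0.06) did not pass the test. A match describes letters in the window and says nothing of binding.

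Among the peptide carriers, Slc15a2 fell about 10-fold and no other member passed. Slc15a2 encodes the high-affinity carrier that brings dipeptides and tripeptides into cells with protons. It read 5.03, 5.70 and 5.15 in mutants 1 to 3, against 8.53, 8.76 and 8.69 in controls 1 to 3. All mutants lay far below all controls, and mutant 2 was the highest of the mutants. The difference was -3.37 ± 0.16 (SE, n = 3 per group), or 10.3-fold lower, with a limma adjusted p of 2.88e-05. Leaving out each array in turn gave differences from -3.57 to -3.23, with adjusted p up to 0.000589.

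The intestinal counterpart Slc15a1, a low-affinity peptide carrier, read 4.92 to 5.02 in mutants and 4.93 to 5.06 in controls, a difference of -0.05 (95% interval -0.19 to 0.10). Slc15a3 and Slc15a4 are carriers of endosomes and lysosomes that move histidine and peptides, known from immune cells. Slc15a3 read 6.69 ± 0.13 in mutants and 6.61 ± 0.07 in controls (SD, n = 3), with a difference of 0.08 (95% interval -0.10 to 0.27). Slc15a4 read 8.50, 8.42 and 8.52 in mutants, all above the 8.35, 8.27 and 8.29 of controls, yet its difference of 0.17 ± 0.06 did not pass (adjusted p = 0.134). With Slc15a5 (-0.05), the 95% intervals of the other 4 members ran no lower than -0.19 and no higher than 0.30.

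The fall of Slc15a2 came with lower readings of epithelial markers, and in whole lung fewer epithelial cells and less RNA per cell cannot be told apart. Of 12 distal epithelial markers, 9 fell, 3 missed the threshold and the median difference was -0.78. Of 12 general epithelial markers, 7 fell, 5 missed the threshold and the median was -0.39, in a range from -1.03 to -0.01. Relative to the control mean, the distal list's median stood at -0.72, -0.73 and -0.67 in mutants 1 to 3, and the general list's at -0.56, -0.38 and -0.27. Lower readings were not confined to epithelial lists, since 6 of 8 smooth muscle genes fell (median -1.58) and 4 of 8 cartilage genes (median -0.49). The adhesion gene Epcam, found in all epithelia, differed by -0.33 (adjusted p = 0.0383, up to 0.147 without control 1) and the cadherin Cdh1 by -0.19 (adjusted p = 0.0684). The surfactant gene Sftpc (-5.58) and the mucin gene Muc1 (-3.40) also fell. Both read under 6 in mutants, as did Slc15a2, so these sizes are not ranked. The part of these markers in the Slc15a2 difference was not tested.

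**Figure D3:**
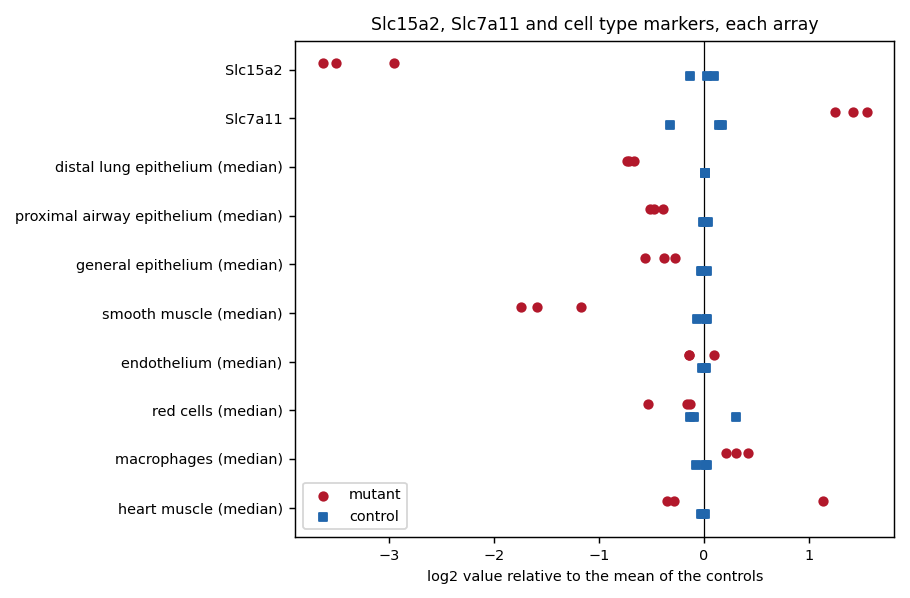
Log2 value of each array relative to the mean of the 3 controls, for Slc15a2, Slc7a11 and the medians of 8 marker lists, in mutants (circles) and controls (squares). The medians of the epithelial lists and of smooth muscle lie below the controls in the mutants, and mutant 1 stands apart in heart muscle markers at 1.13. A list's median is not ranked against a single gene.

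In the SLC1 family, Slc1a4 and Slc1a3 fell by less than 1.5-fold, and the other 5 members did not pass. The 2 calls are 28.6% of 7 members, beside 7.66% of all genes. Slc1a4 (ASCT1) carries serine, alanine and other small neutral amino acids. It read 8.46, 8.48 and 8.50 in mutants, against 8.92, 8.91 and 8.84 in controls, with tight values in both groups and no overlap. The difference was -0.41 ± 0.05 (SE, n = 3 per group), or 1.33-fold lower, with a limma adjusted p of 0.00318. It stayed past the threshold with any single array left out (adjusted p up to 0.0233).

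Slc1a3 (GLAST) is a glutamate carrier best known from glia. It read 8.55, 8.50 and 8.67 in mutants, against 8.95, 8.91 and 8.84 in controls, again without overlap. The difference was -0.32 ± 0.07, or 1.25-fold lower (limma adjusted p = 0.0228). The call was lost without mutant 1 (limma adjusted p = 0.0531) and without control 1, 2 or 3 (0.0999, 0.0977 and 0.0610). The difference itself stayed between -0.37 and -0.29 with any single array left out. Calls over all genes also became fewer without any 1 of the controls. Markers of neurons and Schwann precursors, 7 in all, had a median difference of -0.01, with Erbb3 lower (-0.57, adjusted p up to 0.145 without control 3) and Fabp7 higher (0.56, up to 0.109 without control 1). Their part in the Slc1a3 difference was not tested.

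The near relative of Slc1a4, the glutamine carrier Slc1a5 (ASCT2), read 8.85, 9.07 and 8.68 in mutants and 8.79, 8.89 and 8.94 in controls. Its groups overlapped and its difference was 0.00 (95% interval -0.23 to 0.23). The glutamate carrier Slc1a2 (GLT-1) had mutants wholly below controls, at 6.20 to 6.36 and 6.43 to 6.47, but did not pass (-0.18 ± 0.06, adjusted p = 0.141). The remaining members Slc1a1, Slc1a6 and Slc1a7 lay between -0.16 and 0.02, with overlapping groups. The median of the 7 SLC1 differences was -0.16.

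Among the heteromeric carriers, the light chain Slc7a11 rose, at 2.66-fold on the array scale, and its heavy chain Slc3a2 did not pass. Slc7a11 (xCT) exchanges cystine for glutamate and so supplies cysteine for glutathione. It read 6.26, 6.57 and 6.43 in mutants, against 5.18, 5.16 and 4.69 in controls. All mutants lay above all controls, and control 3 was the lowest of the 6 arrays. The difference was 1.41 ± 0.14 (SE, n = 3 per group), with a limma adjusted p of 0.000783. It passed with any single array left out (adjusted p up to 0.00525). The control values lay at the dim end of the scale, so the size of the fold is uncertain. Of 7 liver genes, Ttr and Alb averaged 5.22 and 5.61 in the same control lungs, but Apoa1 averaged 7.03. Only 25.6% of all genes read dimmer than Slc7a11 on average, so the gene was not tested in the alternative that leaves out the dimmest 1 of 3 parts of genes.

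Slc3a2 (the 4F2 heavy chain, CD98) carries Slc7a11 and several other light chains to the cell surface. It read 11.54, 11.52 and 11.47 in mutants and 11.50, 11.44 and 11.39 in controls, which overlap. The difference was 0.07 (95% interval -0.06 to 0.20). The light chain Slc7a5 (LAT1), which imports large neutral amino acids, read 10.55, 10.36 and 10.55 in mutants and 10.50, 10.39 and 10.26 in controls, a difference of 0.10 (95% interval -0.09 to 0.29). Slc7a6, a light chain for cationic amino acids, differed by 0.10 (95% interval -0.04 to 0.25). None of these 3 chains passed the threshold.

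Slc7a8 (LAT2), another light chain of Slc3a2, read 7.78, 7.56 and 8.05 in mutants and 7.56, 7.38 and 7.55 in controls. The groups overlapped slightly, and its difference of 0.30 ± 0.12 did not pass (adjusted p = 0.210). The heavy chain Slc3a1 (rBAT), the kidney and gut partner of Slc7a9, read 6.08 ± 0.06 in mutants and 6.13 ± 0.05 in controls (SD, n = 3). Slc7a7, Slc7a9, Slc7a10, Slc7a12, Slc7a13 and Slc7a15 lay between -0.12 and 0.05, none past the threshold. Slc7a11 was thus the single call among 10 light chains (10%, beside 7.66% of all genes) and 2 heavy chains.

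**Figure D4:**
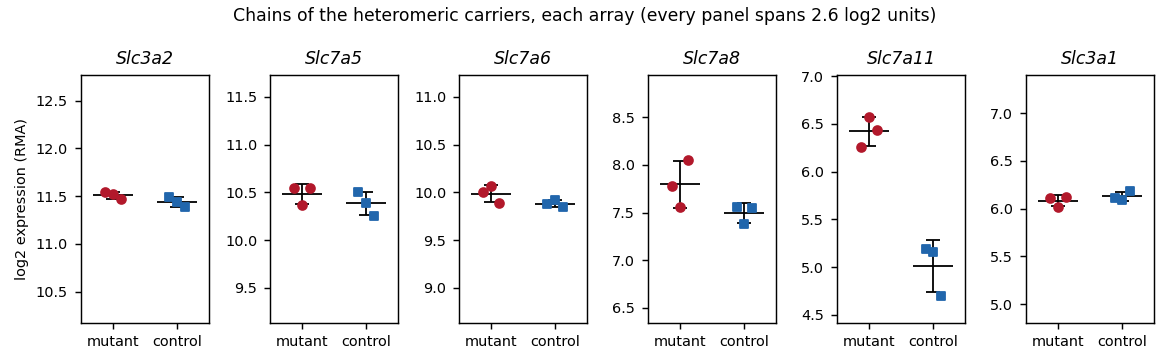
Log2 expression (RMA) of 6 chains of heteromeric carriers in 3 mutant (circles) and 3 control lungs (squares), with mean and SD as bars. Panels have the same span but different positions on the scale. Slc7a11 separates the groups by 1.41, and Slc3a2 by 0.07.

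Genes that respond to amino acid shortage through ATF4, a set to which Slc7a11 belongs, were not called. Of 19 measured genes of this list, 0 passed limma's adjusted threshold, and the median difference was 0.01. The largest difference was a rise, in Stc2 (0.40 ± 0.12, limma adjusted p = 0.0903), with all mutants above all controls. Chac1 was lower in mutants (-0.34 ± 0.10, limma adjusted p = 0.0974), and these were the genes with an unadjusted p under 0.05. An unadjusted p under 0.05 was reached by 2 (10.5%, beside 19.8% of all genes). Atf4 itself read 7.95, 8.26 and 8.07 in mutants and 8.23, 8.24 and 8.27 in controls, and Asns, the asparagine synthetase gene, 10.06, 9.91 and 9.80 in mutants and 10.07, 10.03 and 9.81 in controls. Their differences were -0.16 ± 0.08 and -0.05 ± 0.09. Stc2, Chac1, Atf4 and Asns were named outside the rule for named genes, after their values were seen. A second list, of glutathione genes and targets of the oxidative stress factor NRF2, was added after the Slc7a11 value was known. In it, 0 of 11 passed and 5 (45.5%, beside 19.8% of all genes) had an unadjusted p under 0.05, with a median of -0.13. All 5 read lower in mutants, namely Hmox1 (-0.48), Chac1 (-0.34), Gclm (-0.27), Ggct (-0.15) and Osgin1 (-0.15). Chac1 stands in both lists. The part of ATF4 or NRF2 in the Slc7a11 difference was not tested. The glutamate-cysteine ligase subunits, which use the cysteine for glutathione, stood at -0.13 ± 0.08 for Gclc and -0.27 ± 0.09 for Gclm (adjusted p = 0.428 and 0.114).

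The 5 cationic members of SLC7 and their relatives gave no call, with 1 unadjusted p under 0.05 (20%, beside 19.8% of all genes). Slc7a2, an arginine and lysine carrier, read 8.85, 8.44 and 8.69 in mutants and 8.21, 8.45 and 8.23 in controls. Mutant 2 overlapped the controls, and the difference of 0.36 ± 0.11 did not pass (adjusted p = 0.106). Without mutant 2, the lowest of the mutants, it was 0.47 with an adjusted p of 0.0225. The widely expressed arginine carrier Slc7a1 stood at -0.08 (95% interval -0.31 to 0.15), and Slc7a3, Slc7a4 and Slc7a14 between -0.11 and 0.07.

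Of 10 SLC6 members grouped as amino acid carriers, 1 fell and 1 rose (20%, beside 7.66% of all genes), and both were dim. Slc6a14 (ATB0,+) takes up neutral and cationic amino acids and lies on the X chromosome. It read 5.003, 5.118 and 5.235 in mutants, against 5.926, 5.618 and 5.749 in controls, and the groups did not overlap. The difference was -0.65 ± 0.09 (SE, n = 3 per group), or 1.56-fold lower (limma adjusted p = 0.0051). Only 21.3% of all genes read dimmer on average, so the size of the fold is uncertain. With embryo sex as a covariate the adjusted p was 0.0113, and with any single array left out it was at most 0.0286. As with Slc15a2, the epithelial markers fell alongside, and their part was not tested.

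Slc6a15 (B0AT2) carries branched-chain amino acids and proline and is best known from neurons. It read 5.48, 5.68 and 5.36 in mutants, against 4.97, 5.05 and 5.03 in controls, without overlap. The difference was 0.49 ± 0.08, or 1.40-fold higher (limma adjusted p = 0.0116). Only 18.6% of all genes read dimmer on average, so the size of the fold is uncertain, as for Slc7a11. The call ended without control 1 (adjusted p = 0.0584) and without control 3 (adjusted p = 0.0528). The other 8 members of this group lay between -0.13 and 0.04, and 7 of them read under 7 in both groups.

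The 10 SLC6 members that carry neurotransmitters, osmolytes or creatine gave no call. An unadjusted p under 0.05 was reached by 1 (10%, beside 19.8% of all genes). The taurine carrier Slc6a6 read 9.86 on average in mutants and 9.75 in controls (0.11 ± 0.06, adjusted p = 0.395). The creatine carrier Slc6a8 read 8.94 and 9.11 (-0.17 ± 0.09, adjusted p = 0.383), and the glycine carrier Slc6a9 8.75 and 8.69 (0.07 ± 0.07, adjusted p = 0.715), mutants first in each pair. The serotonin carrier Slc6a4 had the unadjusted call, at -0.13 ± 0.05 (adjusted p = 0.246). These 4 genes were named after their values were seen.

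The sodium-coupled SLC38 carriers include some of the brightest readings of the 69 genes, and none of the 11 passed. An unadjusted p under 0.05 was reached by 3 of them (27.3%, beside 19.8% of all genes). Brightness on an array also depends on the probes, so it does not rank the amounts of RNA. Slc38a2 (SNAT2), which takes up alanine, serine and glutamine and adapts to amino acid supply, read 12.01, 11.94 and 12.01 in mutants and 11.97, 11.97 and 11.91 in controls. Its difference was 0.04 (95% interval -0.09 to 0.17). Slc38a1 (SNAT1), a glutamine carrier, read 10.31, 10.33 and 10.28 in mutants, all below the 10.53, 10.55 and 10.45 of controls. Its difference of -0.20 ± 0.05 just missed the threshold (adjusted p = 0.0693), and it passed under 3 alternative settings of the fit or normalization, with adjusted p from 0.0450 to 0.0491. The less bright feature of Slc38a1 gave -0.11 ± 0.08.

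Slc38a4, an imprinted gene for a carrier of neutral and cationic amino acids, read 11.10, 11.29 and 11.07 in mutants and 11.05, 10.96 and 11.08 in controls. The groups overlapped (0.12 ± 0.08, adjusted p = 0.442). Slc38a3 (SNAT3), a glutamine carrier, read 7.52, 7.88 and 7.80 in mutants, above the 7.45, 7.36 and 7.41 of controls. Its difference of 0.33 ± 0.09 missed the threshold (adjusted p = 0.0810). Without mutant 1, the lowest of the mutants, it was 0.43 (adjusted p = 0.00819). Slc38a9, the lysosomal carrier that signals arginine to mTORC1, stood at 0.25 ± 0.10 (adjusted p = 0.195). The less bright feature of Slc38a9 gave 0.11 ± 0.09.

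Slc38a5 (SNAT5) is a glutamine carrier on the X chromosome that is also found in red cell precursors. It read 9.67, 10.12 and 10.11 in mutants and 10.19, 10.15 and 10.13 in controls. Its 95% interval of -0.46 to 0.08 was the widest of the 11 SLC38 intervals, with mutant 1 below all other arrays. The difference was -0.19 with all arrays and -0.04 without mutant 1, the array with the high heart muscle markers, whose part was not tested. Among red cell markers, Alas2 (-1.04) and Slc4a1 (-1.09) fell and the other 3 of 5 did not pass, and their part in the Slc38a5 values was not tested. In Slc38a1, Slc38a2 and Slc38a4, which neighbour each other on chromosome 15, the differences were -0.20, 0.04 and 0.12.

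The 4 proton-coupled SLC36 carriers and the 3 SLC43 carriers gave no call and 0 unadjusted p under 0.05. The lysosomal and plasma membrane carrier Slc36a1 stood at -0.03 ± 0.08 and Slc36a4 at 0.02 ± 0.06. Slc43a3, a relative that carries purine bases, read 10.86, 10.96 and 10.94 in mutants and 11.04, 10.98 and 10.99 in controls. Its groups did not overlap, but the difference of -0.09 ± 0.06 did not pass (adjusted p = 0.463). The opposite-strand genes Slc7a6os and Slc6a19os stood at 0.01 and -0.06.

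**Figure D5:**
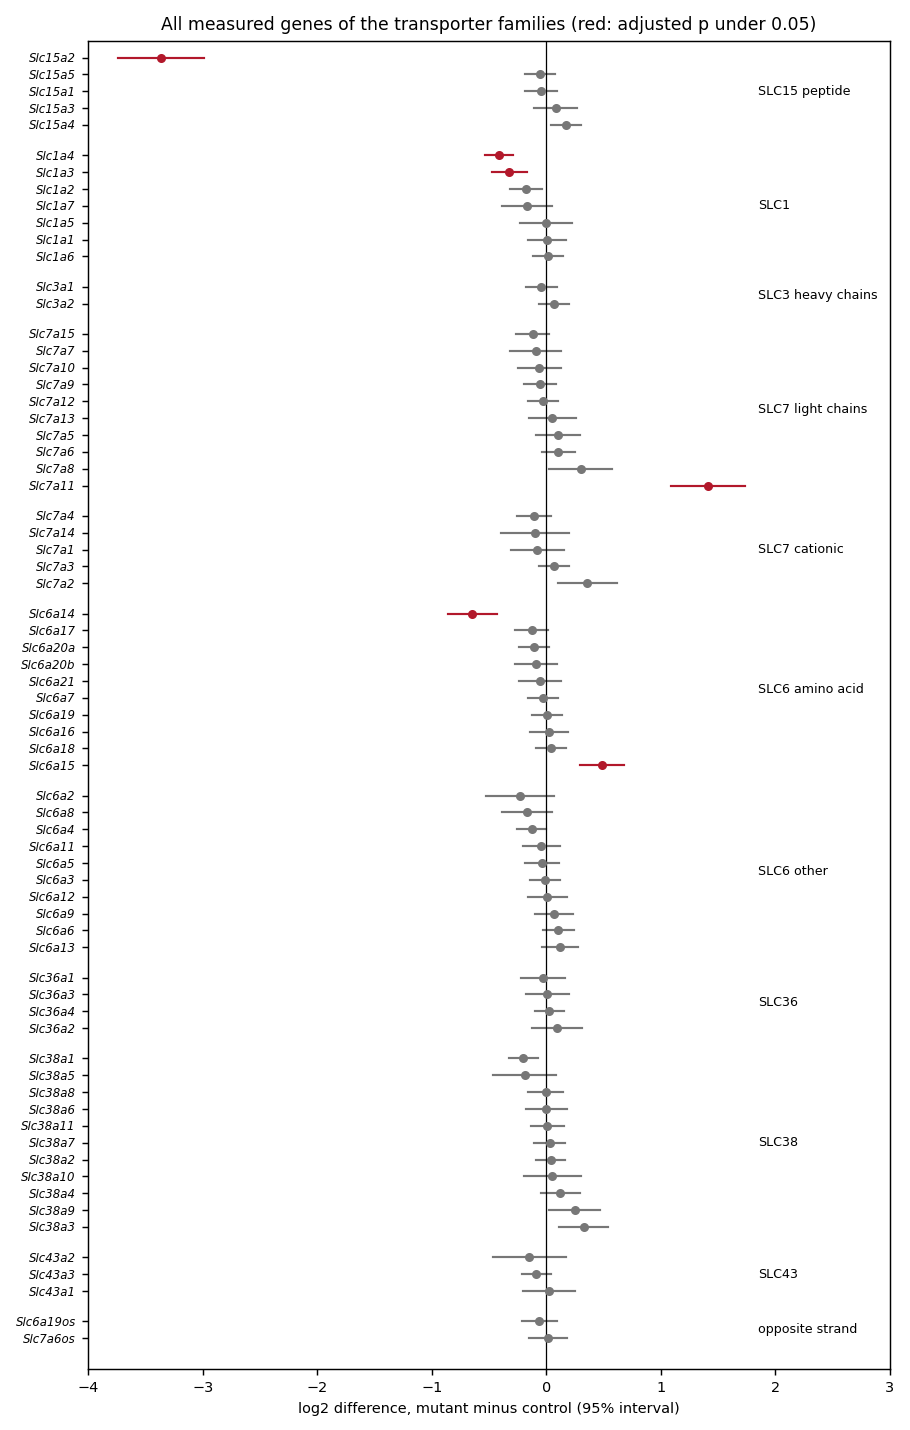
Log2 difference, mutant minus control, with its 95% interval, for the 69 members in their families, ordered by size within each. The 6 past the threshold are red. Slc15a2 (-3.37) and Slc7a11 (1.41) lie far from the rest, whose differences run from -0.65 to 0.49.

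Beyond the carriers of the rule, other genes of amino acid handling were read as 5 lists, with medians between -0.02 and 0.04. The share called was 0% in the amino acid response genes and in the enzymes, 5.88% in the further carriers, 12.5% in the mTORC1 genes and 23.1% in the peptidases, beside 7.66% of all genes. Of 17 further amino acid carriers, 1 rose, the lysosomal cystine carrier gene Ctns (0.39 ± 0.08, limma adjusted p = 0.0193). Of 19 enzymes of glutamine, glutamate and arginine, 0 passed limma's adjusted threshold. An unadjusted p under 0.05 was reached by 2 (10.5%, beside 19.8% of all genes), both lower in mutants. Arg2 just missed the threshold (-0.68 ± 0.17, limma adjusted p = 0.0515), with mutants wholly below controls. The other was Gclm (-0.27 ± 0.09). Of 24 genes through which amino acids act on mTORC1, 2 rose and 1 fell. Nprl3, a subunit of the inhibitory GATOR1 complex, fell (-0.43 ± 0.07, adjusted p = 0.00911), and Castor2 of the arginine sensor family (0.45 ± 0.10) and the sestrin Sesn3 (0.25 ± 0.05) rose. The calls of Ctns, Castor2 and Sesn3 ended with single controls left out (adjusted p up to 0.0937, 0.126 and 0.133). They also ended when all features were tested (limma adjusted p = 0.0615, 0.0943 and 0.0665). With the mean of its features, Castor2 stood at 0.33 and did not pass (0.0583). Ctns and Sesn3 ended with the replicate block (0.0502 and 0.0952). Sesn3 ended with median centring (0.0853) and with embryo sex as a covariate (0.0603).

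Among 13 peptidases that release amino acids and small peptides, 1 fell and 2 rose. Dpp4, a surface enzyme that clips dipeptides from the ends of peptides, averaged 7.85 ± 0.26 in mutants and 9.08 ± 0.10 in controls (SD, n = 3 each). The groups did not overlap, and the difference was -1.24 ± 0.13, or 2.36-fold lower (limma adjusted p = 0.000934). Anpep, the surface aminopeptidase N, went the other way, with 8.22, 7.90 and 7.94 in mutants, against 7.22, 7.19 and 7.28 in controls. All mutants lay above all controls, at 0.79 ± 0.09 or 1.73-fold higher (adjusted p = 0.00149). Both calls held with any single array left out, with adjusted p up to 0.00824 for Dpp4 and 0.0119 for Anpep. The lysosomal peptidase Tpp1 rose by 0.33 ± 0.07 (adjusted p = 0.0325, up to 0.137 without control 3). Macrophage markers moved alongside, with 3 of 8 higher, 0 lower and a median of 0.35. Lung mesenchyme markers had 3 of 10 higher and 1 lower (median 0.11), and distal epithelial markers 9 of 12 lower (median -0.78). The part of these lists in the Dpp4, Anpep and Tpp1 differences was not tested.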

How the data were processed

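RNA of 3 mutant and 3 control whole lungs was measured on arrays. The deposited values are log2 expression per feature, made by the authors with oligo and RMA, per the submitters' processing notes, with versions and settings not given in the sources used here. The table held 35556 features, and 21789 with a single gene symbol entered, the brightest feature per gene over the 6 arrays, giving 19938 genes. All 69 members matched RefSeq (GRCm38.p6) by Entrez identifier, which was used for chromosomes, neighbours and promoters, since the series names no build. Mutant was compared with control in R 4.3.3 through lmFit and eBayes of limma 3.58.1 (genotype as the only term, two-sided, Benjamini-Hochberg over all 19938 genes, threshold 0.05). The test was first tested on simulated data. Array values carry no counts, so 3 arrays per group set the precision. The series' text gives 3 embryos per group, taken as the replicates.

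The members, lists, motifs and alternatives were chosen with earlier results of these data known. Genes named are all called members, the 6 brightest, partners of a called heteromeric chain, the peptide carriers beside Slc15a2, and up to 3 called genes per related list. Genes named outside this rule were chosen after their values were seen, and such genes include members with an unadjusted p under 0.05, those with non-overlapping groups, the bright members of each family and the marker genes quoted. Lists are described by counts and medians. Alternatives covered normalization, centring, dim genes, features, moderation, array weights, replicate block, embryo sex, thresholds and each array left out.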

Additional observations from a re-analysis of the deposited data

How the results depend on the processing

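Slc15a2, Slc7a11 and Slc6a14 passed under every alternative in which they were tested. Slc1a4 passed under 16 of 17 and missed only when at least 1.5-fold was also required. Slc6a15 passed under 13 of 16 and Slc1a3 under 10 of 17. Counted at the usual threshold, 4 members were lower and 2 higher. Requiring at least 1.5-fold left 2 lower and 1 higher. With array weights 5 were higher (Slc7a2, Slc7a8 and Slc38a3 joined). With the dimmest 1 of 3 parts of genes left out, 39 members were tested, and Slc7a11, Slc6a15 and Slc6a14 were not among them. Of the 39, 3 were called lower and 0 higher by limma, and 5 higher ones had an unadjusted p under 0.05. Leaving out each array in turn gave 3 to 4 lower and 1 to 4 higher members, with 1 higher without control 1 or control 3 and 4 without mutant 2. The genes called in the whole comparison, 1528, became 828 when all features were tested and 549 when at least 1.5-fold was also required, and 778 to 1745 with single arrays left out, the lowest 876, 793 and 778 without control 1, 2 and 3. With the replicate block, 3 members were lower, 2 higher and 1137 genes called, and Slc1a3 was lost (adjusted p = 0.0670). Same-numbered arrays deviated together by correlations of -0.07, 0.05 and 0.15, and 2 of 6 arrays correlated best with their own number. With 3 arrays per group such matches cannot show or exclude pairing, and same-numbered arrays were also of the same sex. The numbers were not taken as pairs because the labels do not give their meaning. Slc1a3 also missed when all features were tested (adjusted p = 0.0637). None of the 6 called members changed sign under these alternatives, while uncalled members with differences near 0 did, such as Slc1a5 at -0.11 to 0.09 with single arrays left out. Dim readings limit how far a fall can be followed and how well the size of a rise is known.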
